A study of Homo sapiens with 6 samples.

Results

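RNA abundance of 10 genes of the Notch pathway was examined in the human colorectal adenocarcinoma line DLD-1, whose nuclear pore protein TPR can be degraded by adding auxin. The genes were HES1, HES4, HEY1 and NRARP as targets, NOTCH1, NOTCH2 and NOTCH3 as receptors, JAG1 and JAG2 as ligands, and RBPJ as the DNA-binding factor. They were taken by gene symbol from a table of 58051 Ensembl genes, in which all 10 were found, and 9 of them were among the 16974 genes with enough counts to be tested. HES1 was picked because its RNA was higher with auxin in these same libraries. Its values in that comparison are therefore given as a description and without a test, whereas the other genes were listed for their place in the pathway.

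All 6 libraries came from cells of 1 genotype, AID-NeonGreen-TPR, in which the TPR locus carries an auxin-inducible degron and a fluorescent protein, and all were treated with Leptomycin B (LMB), an inhibitor of the export receptor CRM1. The LMB group (3 libraries) received 200 nM LMB for 3 h. The LMB+auxin group (3 libraries) received the same LMB and 1 mM auxin for the last 2 h. Sample titles read 2hr in both groups, while the study's methods give 3 h of LMB. Per the study's methods, the plant ligase TIR1 that makes auxin act on the degron was inserted at the RCC1 locus, both TPR alleles were tagged, and lines were grown from genotyped clones. Neither cells without LMB nor cells lacking the degron were analysed here, so loss of TPR and other effects of auxin cannot be told apart, and nothing below measures LMB itself.

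Notch signalling passes between touching cells. A Jagged or Delta ligand on one cell pulls on a Notch receptor on its neighbour, the proteases ADAM10 and gamma-secretase cut the receptor, and the freed intracellular part enters the nucleus and joins RBPJ and a Mastermind protein on DNA. The best known targets include members of the HES and HEY families, which encode bHLH repressors, and NRARP, which encodes a feedback inhibitor of the pathway. In the intestinal epithelium HES1 holds cells in the absorptive lineage by repressing ATOH1, the factor that starts secretory differentiation. HES1 also represses its own promoter, and its mRNA is short-lived.

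The sequence just before the HES1 start is shown because it holds the element through which RBPJ is known to act on this gene. It is the RefSeq promoter window cut at the start site, chr3:194135898-194136147 on the plus strand of GRCh38.p14, 250 bases, with capitals marking TGGGAA, the core of the RBPJ motif. The HES4 window is shown beside the matching HES1 stretch because both target genes carry the longer form GTGGGAA before their RefSeq start, while HES1 was chosen for its rise and HES4 passed no test.
HES1 promoter: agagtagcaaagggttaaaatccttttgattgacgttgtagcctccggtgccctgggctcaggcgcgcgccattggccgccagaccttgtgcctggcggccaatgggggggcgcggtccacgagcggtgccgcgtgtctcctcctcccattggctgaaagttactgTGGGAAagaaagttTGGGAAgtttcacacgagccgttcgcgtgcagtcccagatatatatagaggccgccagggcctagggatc
HES1 site: ctgaaagttactgTGGGAAagaaagtttgg
HES4 site: gctggggcgagtgTGGGAAagaatgcggag

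The HES1 site spans chr3:194136051-194136080 on the plus strand and the HES4 site chr1:1000157-1000186 on the minus strand, and 16 of their 30 bases match. Both stretches were cut around GTGGGAA, so the letters of that motif match by construction. Both strands were searched in the 250 bases before each start, and overlapping matches were counted. In HES1 the core TGGGAA began at positions -84 and -70 counted from the start, and the first of these lies within GTGGGAA at -85. In HES4, GTGGGAA began at -77 counted from the RefSeq start at position 1000097. GENCODE places the 5′ end of HES4 further upstream, at 1000172, and the match begins at 1000174, so it straddles that end. For HES1 both sources give the same start. GTGGGAA was found in 5.43% of 35116 promoter windows of this length and TGGGAA in 20.8%. Of the 6 tested genes listed as targets of the pathway, 2 held GTGGGAA in this window, HES1 and HES4. It was not found in NRARP, HES2, HES6 or HES7, whereas HES5 had 2 matches and HEY2 and HEYL 1 each, genes too low to be tested here. HES1 also had 3 matches to the N box CACNAG and 2 to the site CACGCG, both of which HES proteins bind, and HES4 had 0 of either. The share of all windows with a match was 32% for CACNAG and 9.72% for CACGCG. These are matches of letters only.

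HES1 (ENSG00000114315, 4 exons, plus strand of chromosome 3, 194136148 to 194138732, GRCh38) had the same rise in each replicate pair. CPM here is the number of counts per 1000000 counts of the library after TMM scaling. HES1 was at 24.0, 44.3 and 34.9 CPM in LMB replicates 1, 2 and 3, and at 45.9, 80.0 and 64.4 CPM in LMB+auxin replicates 1, 2 and 3. The groups did not overlap, but the lowest library with auxin lay close above the highest without it. Over all tested genes 4.89% were higher without overlap. HES1 was chosen for this rise, so neither the gap nor the pair values below are a test. In bulk RNA, more cells with a transcript and more of it per cell cannot be told apart. The mean was 34.4 ± 10.1 CPM without auxin and 63.5 ± 17.0 CPM with it (SD, n = 3 libraries each). Within pairs of the same replicate number the rise was 1.91-fold, 1.81-fold and 1.85-fold. On the log2 scale these pair differences were 0.93, 0.85 and 0.89, with an SD of 0.04, whereas the SD of the 3 pair differences had a median of 0.11 over all tested genes.

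**Figure D1:**
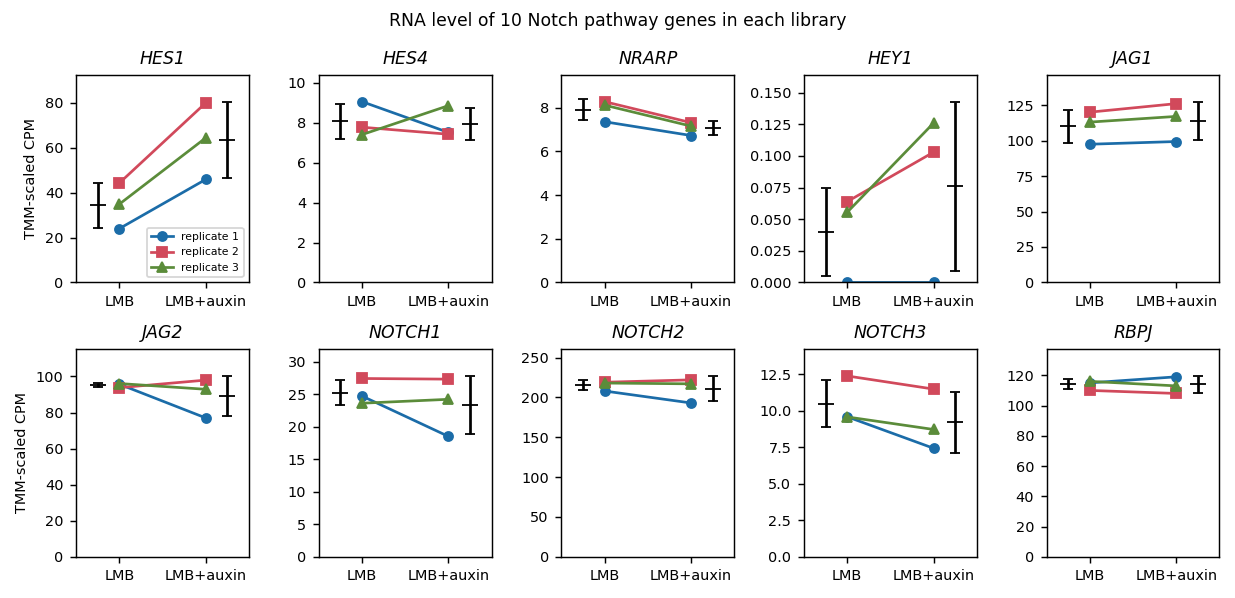
TMM-scaled CPM (y axis, from 0, a separate scale for each gene) of the 10 genes in LMB and LMB+auxin (x axis). Lines join libraries of the same replicate number, and the bars beside the points give the mean ± SD of 3 libraries. HES1 is higher in LMB+auxin in 3 of 3 pairs, while NRARP is slightly lower in all 3 and the other tested genes overlap between the groups. HEY1 rests on 0 to 4 counts per library.

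The log2 fold change of HES1 in LMB+auxin over LMB was 0.88 with a standard error of 0.25 when the libraries were treated as independent. It was 0.89 with a standard error of 0.06 when the replicate number was kept as a block, a term that removes what libraries of the same number share. Among the 12480 tested genes with a mean of at least 5 CPM, 3 had a log2 fold change at least as high as HES1 in the fit with the block, HES1 itself included. By the smallest of the 3 pair differences, 2 genes reached the value of HES1, again with HES1 included. These are the values for which HES1 was chosen.

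Replicates of 1 group differed in HES1 by about as much as the groups did. The SD of log2 CPM within groups was 0.42 for HES1, against a median of 0.13 over all tested genes, and only 2.53% of tested genes had a larger one. In the fit with the block, replicate 2 was above replicate 1 by 0.84 and replicate 3 above replicate 1 by 0.51 on the log2 scale. The biological coefficient of variation of HES1, edgeR's estimate of the relative spread between replicates, was 0.199 without the block and 0.0396 with it. Genes of similar abundance had 0.0881 and 0.0404. With the replicate number in the fit, the estimate for HES1 was close to that for genes of its abundance. The estimate of each gene is drawn towards that of genes of similar abundance, so this closeness does not measure how well the pairs agree. HES4, with an SD of pair differences of 0.26, had 0.052 with the block against 0.0485 for genes of its abundance.

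HES4 and NRARP, targets of the same pathway, passed no test of a change. HES4 (ENSG00000188290, minus strand of chromosome 1, 998962 to 1000172), a close relative of HES1, was at 9.05, 7.77 and 7.40 CPM in LMB replicates 1, 2 and 3 and at 7.51, 7.42 and 8.85 CPM in LMB+auxin. The groups overlapped, and the 3 pairs went in different directions. Its log2 fold change was -0.02 (SE 0.13; edgeR adjusted p = 0.990), and it turned positive under several other choices given in the closing section. NRARP (ENSG00000198435, a gene of 1 exon on the minus strand of chromosome 9, 137299631 to 137302271) was at 7.36, 8.28 and 8.12 CPM in LMB and at 6.73, 7.32 and 7.16 CPM in LMB+auxin. It was lower with auxin in 3 of 3 pairs, by 0.13, 0.18 and 0.18 on the log2 scale, and the groups did not overlap. A gene that was lower in 3 of 3 pairs was common, at 20.5% of tested genes, and a gene lower without overlap made up 6.63%. For NRARP the log2 fold change was -0.16 (SE 0.11), and it did not pass the test without the block (edgeR adjusted p = 0.954) or with it (adjusted p = 0.328).

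HEY1 (ENSG00000164683, minus strand of chromosome 8, 79762371 to 79767857), another bHLH repressor, was too low to be tested. It had 0, 2 and 2 counts in LMB and 0, 3 and 4 counts in LMB+auxin, at most 0.126 CPM, and no difference was detectable at this depth. Its relatives HEY2 and HEYL had 0 counts in all 6 libraries, which allows up to 3 counts per library, or 0.0834 to 0.106 CPM depending on its total. Such limits cover counting error only.

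None of the 3 receptors passed the test. NOTCH2 (ENSG00000134250, minus strand of chromosome 1, 119911553 to 120100779) was the most abundant receptor, at 208, 219 and 218 CPM in LMB and, with auxin, at 193, 222 and 217 CPM. Its log2 fold change was -0.03 (SE 0.07; edgeR adjusted p = 0.978), and the groups overlapped. Of its near-identical copies, NOTCH2NLA had at most 43 counts in a library. Reads of NOTCH2 that matched such copies may be missing from its count.

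NOTCH1 (ENSG00000148400, minus strand of chromosome 9, 136494433 to 136546048) was at 24.7, 27.4 and 23.6 CPM in LMB and at 18.5, 27.3 and 24.2 CPM in LMB+auxin. In replicate 1 the level with auxin was 0.747 of that without it, and the other pairs were nearly level. The log2 fold change was -0.11 (SE 0.13; edgeR adjusted p = 0.957). NOTCH3 (ENSG00000074181, minus strand of chromosome 19, 15159038 to 15200995) was at 9.60, 12.4 and 9.59 CPM in LMB and at 7.44, 11.5 and 8.73 CPM in LMB+auxin. It was lower in 3 of 3 pairs, by 0.37, 0.10 and 0.14 on the log2 scale, and the groups overlapped. Its log2 fold change was -0.19 (SE 0.17), with an edgeR adjusted p of 0.954, and of 0.194 in the fit with the block.

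Both ligands were well above the limit for testing, and neither passed the test. JAG1 (ENSG00000101384, 26 exons, minus strand of chromosome 20, 10637684 to 10673999) was at 97.4, 120 and 113 CPM in LMB and at 99.3, 126 and 117 CPM in LMB+auxin. It was higher in 3 of 3 pairs by 0.03, 0.07 and 0.05 on the log2 scale, a direction shared by 21.3% of tested genes. Its log2 fold change was 0.05 (SE 0.10; edgeR adjusted p = 0.972). The lncRNA ENSG00000270792, on the opposite strand, shares 306 exonic bases with JAG1. JAG2 (ENSG00000184916, 26 exons, minus strand of chromosome 14, 105140982 to 105168824) was at 95.7, 93.8 and 96.1 CPM in LMB and at 77.0, 98.0 and 92.9 CPM in LMB+auxin. Replicate 1 with auxin was the low value, and the groups overlapped. For JAG2 the log2 fold change was -0.09 (SE 0.09; edgeR adjusted p = 0.954). The lncRNA ENSG00000257622 shares 469 exonic bases with JAG2, or 7.33% of its exons, so part of its reads cannot be assigned.

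RBPJ (ENSG00000168214, plus strand of chromosome 4, 26163455 to 26435131) was the steadiest of the 9 tested genes, with a within-group SD of 0.06 on the log2 scale. It was at 115, 110 and 116 CPM in LMB and at 119, 108 and 113 CPM in LMB+auxin. The log2 fold change was 0.00 to 2 decimals with a standard error of 0.07 (edgeR adjusted p = 0.996), and the groups overlapped.

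Levels of different genes were compared per kb of exons, on the mean of each group and for the LMB libraries first. HES1 stood at 16.7 CPM per kb, with libraries from 11.7 to 21.5. JAG2 followed at 14.9, NOTCH2 at 12.8 and JAG1 at 11.8 CPM per kb. The range of HES1 in LMB covered those of JAG2 and NOTCH2 and overlapped that of JAG1, so HES1 was not told apart from these 3. The JAG2 libraries, from 14.7, lay above those of NOTCH2 and JAG1, which overlapped. RBPJ at 7.43 and HES4 at 7.22 CPM per kb were neighbours whose libraries overlapped. NRARP at 3.00, NOTCH1 at 2.01 and NOTCH3 at 1.12 CPM per kb came lower, without overlap among them. In LMB+auxin HES1 stood at 30.8 CPM per kb, and its lowest library, at 22.3, lay above the highest value of every other gene here, 15.3 CPM per kb for JAG2.

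**Figure D2:**
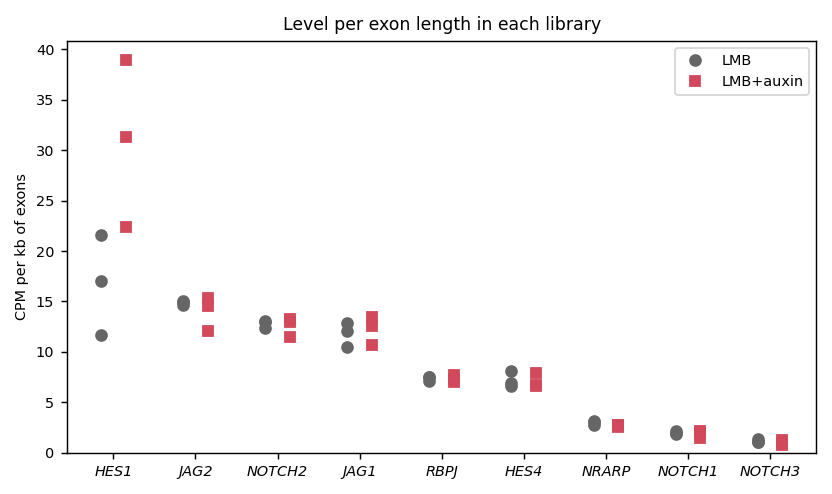
CPM per kb of exons (y axis, from 0) of the 9 tested genes (x axis, in order of their mean), with 1 point per library, circles for LMB and squares for LMB+auxin. With auxin the 3 HES1 libraries sit between 22.3 and 38.9, above all other genes.

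This order depends in part on the length used. With the length of the canonical transcript in place of all annotated exons, the mean over 6 libraries was 31.1 CPM per kb for HES1 and 21.1 for RBPJ, which has many annotated exons. It was 18.8 for JAG1, 18.6 for NOTCH2 and 16.0 for JAG2. These means include the rise for which HES1 was chosen. In the LMB libraries alone the canonical length gave 21.8 CPM per kb for HES1, with libraries from 15.2 to 28.1, and 21.1 for RBPJ, with libraries from 20.4 to 21.5, so HES1 and RBPJ were not told apart. HES4 was at 9.12 CPM per kb by this length, with libraries from 8.36 to 10.2, so RBPJ lay above it without overlap. NRARP and NOTCH1 overlapped by this length.

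To set these genes beside the rest of the pathway, a list of 59 genes was taken by role, of which 50 were tested. The 9 others did not exceed 0.445 CPM in any library. Leaving out HES1, 49 tested genes remained. The edgeR test called 0 of these 49, where a call needed an adjusted p under 0.05 together with a 1.3-fold difference, and 3 had an unadjusted p under 0.05. Over all tested genes it called 1, or 0.00589%, and 4.37% had an unadjusted p under 0.05. DESeq2 called 0 of the 49 as well, and 0.0648% of all tested genes (0.0471% higher and 0.0177% lower). With the replicate block edgeR called 1 of the 49, HES2, which was higher. The block gave calls for 1.19% of all tested genes, 0.3% higher and 0.89% lower. Of the 8 other tested genes described above, 0 were called with the block, with 1 at an unadjusted p under 0.05. The median log2 fold change over the list without HES1 was -0.02, and over all tested genes it was -0.003. Of the 49 genes, 7 were lower with auxin without overlap of the groups: NRARP, NOTCH4, DLL4, MAML1, MAML2, MIB2 and HES6. Another 2, HES2 and SNW1, were higher without overlap. Over all tested genes 6.63% were lower and 4.89% higher without overlap.

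HES2, which encodes a further bHLH repressor of the HES family, was at 6.74, 8.15 and 7.65 CPM in LMB and at 8.85, 9.47 and 12.3 CPM in LMB+auxin. The groups did not overlap, with replicate 3 moving most, and a gene higher without overlap made up 4.89% of tested genes. Its pair differences were 0.39, 0.22 and 0.68 on the log2 scale. The log2 fold change was 0.44 (SE 0.14) without the block (edgeR adjusted p = 0.954). With the block the edgeR adjusted p was 6.0e-04. The blocked call was lost when replicate 3 was left out of both groups, where it came to 0.31 on the log2 scale (edgeR adjusted p = 0.270), and in DESeq2 with the block (adjusted p = 0.178).

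Among the other genes listed as targets, HES6 stood at 9.62 ± 0.408 CPM without auxin and 8.38 ± 0.118 CPM with it (SD, n = 3 libraries each). The HES6 groups did not overlap, where 6.63% of all tested genes were lower without overlap. Its log2 fold change of -0.20 did not pass the edgeR test (adjusted p = 0.954, and 0.194 with the block). HES7, an oscillating gene of the embryonic segmentation clock, was near 1.6 CPM and differed by -0.05 on the log2 scale (edgeR adjusted p = 0.985). Of the 6 tested genes listed as targets, 2 thus had a positive log2 fold change, HES1 among them, and 4 a negative one. The role was taken from the list, and whether each of these genes responds to Notch was not tested.

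**Figure D3:**
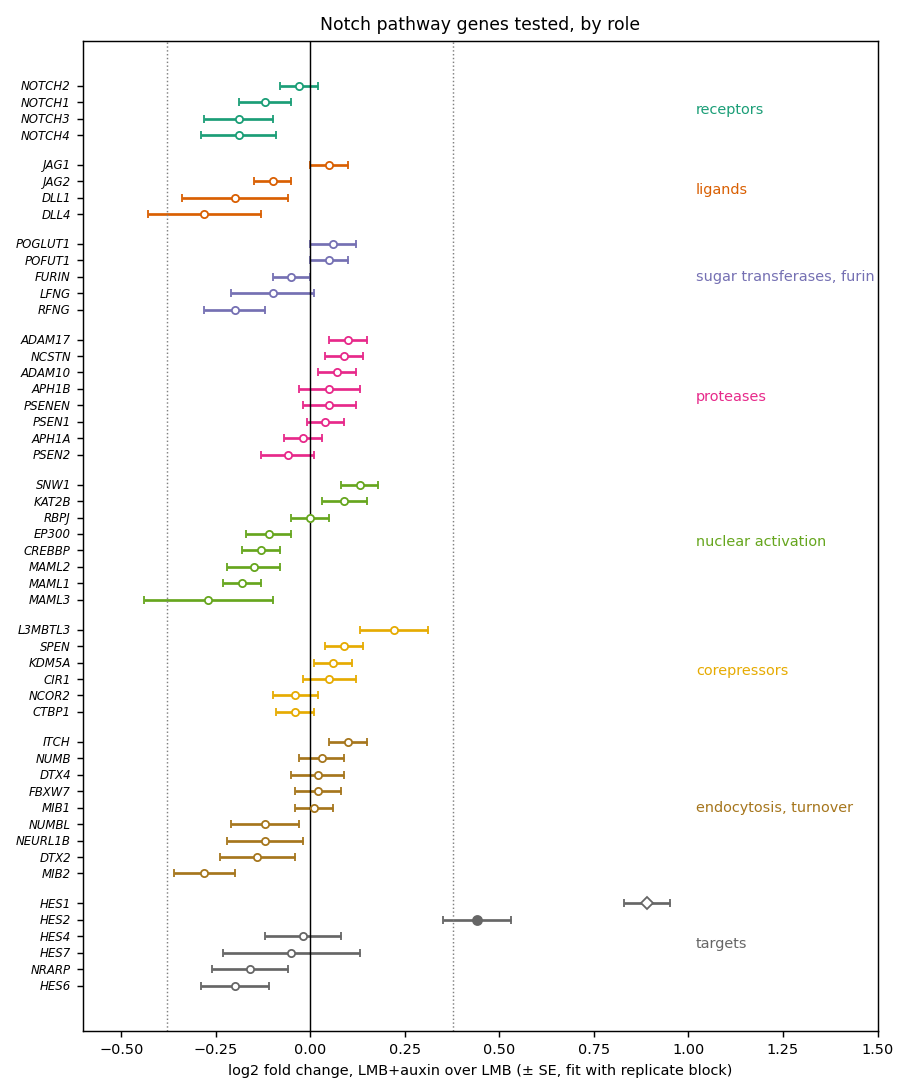
Log2 fold change in LMB+auxin over LMB ± SE (x axis) of the 50 tested genes of the pathway list (y axis), grouped by role, from the edgeR fit with the replicate block. The filled point, HES2 at 0.44, is called, and dotted lines mark the fold change of 1.3. The open diamond is HES1 at 0.89, which was chosen for this difference and is shown without a test, and the other genes run from -0.28 to 0.22.

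Of the 4 receptors, 0 were called, and all 4 had a negative log2 fold change without the block, from -0.19 to -0.03. NOTCH4 was at 8.43, 7.92 and 7.65 CPM in LMB and at 6.80, 7.59 and 6.65 CPM in LMB+auxin, with -0.19 on the log2 scale (edgeR adjusted p = 0.954). It shares 98 exonic bases with GPSM3. Of the 5 ligands 4 were tested and 0 called, with DLL4 lowest at -0.28 on the log2 scale (edgeR adjusted p = 0.954). The direction of the receptors rested in part on replicate 1 with auxin. Without that library NOTCH1 and NOTCH2 were at 0.029 and 0.032.

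The genes that modify and cut the receptor showed small differences, and 0 of them were called with or without the block. Of the sugar transferases and furin, 5 were tested and ran from a log2 fold change of -0.20 for RFNG, one of the Fringe enzymes, to 0.07 for POGLUT1, which adds glucose. The 8 proteases and gamma-secretase subunits ran from -0.06 for PSEN2 to 0.10 for ADAM17.

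Of the 8 genes of nuclear activation, 0 were called. With the block 4 of them were lower and 1 higher at an unadjusted p under 0.05, where 11.8% of all tested genes were lower and 8.11% higher. MAML1, which encodes a Mastermind coactivator, was at 70.7, 65.2 and 70.4 CPM in LMB and at 57.9, 63.5 and 60.8 CPM in LMB+auxin. The MAML1 groups did not overlap, where 6.63% of all tested genes were lower without overlap. Its log2 fold change was -0.18 (SE 0.07). By edgeR it had an adjusted p of 0.954, and of 0.0287 with the block, where the difference stayed under 1.3-fold. The adjusted p for MAML1 rose to 0.309 in DESeq2 with the block, and in edgeR with the block to 0.152 without replicate 1 and 0.471 without replicate 3. At this adjusted p alone, without the fold, the block passed 4.39% of all tested genes. MAML2 at -0.15 and MAML3 at -0.27 did not pass, with edgeR adjusted p-values of 0.222 and 0.370 with the block. SNW1, which encodes a protein of RBPJ complexes and the spliceosome, had the highest log2 fold change of this group, 0.13 (edgeR adjusted p = 0.102 with the block).

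Of the 6 corepressor genes 0 were called, and log2 fold changes ran from -0.04 for CTBP1 to 0.23 for L3MBTL3 (edgeR adjusted p = 0.137 with the block). Of the 12 genes of ligand endocytosis and receptor turnover 9 were tested and 0 called. MIB2, which encodes a ubiquitin ligase for Notch ligands, stood at 17.5 ± 1.87 CPM without auxin and 14.4 ± 0.711 CPM with it (SD, n = 3 libraries each). The MIB2 groups did not overlap, where 6.63% of all tested genes were lower without overlap. For MIB2 the log2 fold change was -0.28 (SE 0.10). By edgeR it had an adjusted p of 0.954, and of 0.0159 with the block, where the difference stayed under 1.3-fold. The adjusted p for MIB2 rose to 0.359 in DESeq2 with the block, and in edgeR with the block to 0.0922 without replicate 2 and 0.279 without replicate 1, where the log2 fold change was -0.17. It shares 180 exonic bases with a lncRNA on the opposite strand. ITCH was highest in this group at 0.10 (edgeR adjusted p = 0.243 with the block). In the list without HES1, 24.5% of tested genes had an unadjusted p under 0.05 with the block (4 higher and 8 lower), and 19.9% of all tested genes did.

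Genes that HES1 is known to repress were mostly below the limit for testing. ATOH1, NEUROG3, SPDEF and MUC2 were not tested, and NEUROG3 had 0 counts in all 6 libraries. GFI1 was at 5.67 ± 0.299 CPM without auxin and 6.07 ± 1.55 CPM with it (SD, n = 3 libraries each), and CDKN1B at 105 ± 4.80 and 103 ± 13.3 CPM. Their log2 fold changes were 0.10 and -0.03 (edgeR adjusted p = 0.967 and 0.982). Of the related bHLH genes, BHLHE40 differed by -0.07 on the log2 scale (edgeR adjusted p = 0.990) and BHLHE41 by 0.04 (adjusted p = 0.989), and HES3 and HELT were too low to test.

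The difference between replicate numbers that marked HES1 was also seen in JAG1, NOTCH3 and NOTCH1. A test of the replicate number in the fit with the block, chosen after these values were seen, gave an edgeR adjusted p of 2.3e-05 for JAG1, 1.9e-04 for NOTCH3 and 0.00249 for NOTCH1. Replicate 2 was above replicate 1 by 0.32, 0.49 and 0.35 on the log2 scale in these genes. Over all tested genes 33.8% passed this test, so such differences were common. HES4 (0.678), NRARP (0.569), RBPJ (0.321), JAG2 (0.0870) and NOTCH2 (0.0698) did not pass by the same edgeR adjusted p.

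The genes with the profile most like that of HES1 were FOS, KLF6, FGD2, IER3 and SNORA79B. Likeness was the root mean square difference of log2 CPM, centred over the 6 libraries, between a gene and HES1. It was 0.24 for FOS, 0.28 for KLF6, 0.30 for FGD2, 0.31 for IER3 and 0.34 for SNORA79B on the log2 scale, with a median of 0.57 over 12434 genes. A gene with no change at all would have 0.56. Among the Notch genes JAG1 was closest, at 0.47, and the other tested ones lay between 0.54 and 0.61. The measure includes the difference between groups for which HES1 was chosen, so the values of these genes are a description too, with no test.

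**Figure D4:**
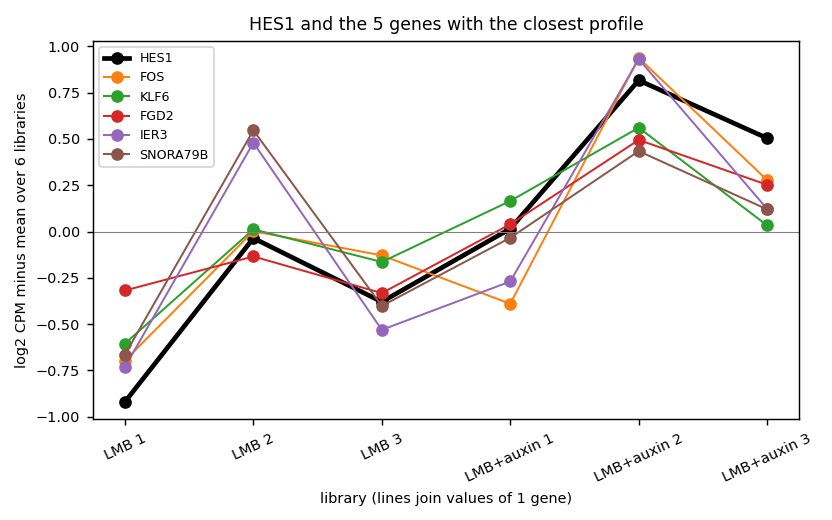
Log2 CPM minus its mean over the 6 libraries (y axis) of HES1 and the 5 genes with the closest profile, in each library (x axis). In all 6 genes LMB replicate 1 was below LMB replicate 2, and HES1 runs from -0.92 to 0.82.

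FOS and KLF6 encode transcription factors that serum induces within minutes, and IER3 encodes a stress-induced survival factor. FOS was at 11.4, 18.5 and 16.9 CPM in LMB and at 14.1, 35.4 and 22.4 CPM in LMB+auxin, and its groups overlapped. KLF6 ranged from 22.1 to 33.9 CPM in LMB and from 34.4 to 49.6 CPM in LMB+auxin, without overlap. FGD2 ranged from 10.2 to 11.7 CPM in LMB and from 13.2 to 18.1 CPM in LMB+auxin, also without overlap. Over all tested genes 4.89% were higher without overlap, and the choice by profile favours such genes. IER3 was at 114, 264 and 131 CPM in LMB and at 157, 361 and 206 CPM in LMB+auxin, and its replicates differed by more than the groups. Pair differences ran from 0.30 to 0.93 for FOS, from 0.20 to 0.77 for KLF6 and from 0.45 to 0.66 for IER3 on the log2 scale. For FGD2 they ran from 0.35 to 0.62, and for SNORA79B, which was lower with auxin in pair 2, from -0.11 to 0.63. Those of HES1, from 0.85 to 0.93, had the lowest SD among these genes.

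Total counts ran from 28261903 to 35992425 per library. Of 9 colon epithelial markers 8 were tested, and their summed level was 7180 to 7290 CPM in LMB and 7120 to 7670 CPM in LMB+auxin. The marker below the limit was CDX1, and KRT8 and KRT18 made up most of the sum, with means of 3420 and 2450 CPM in LMB. Summed markers of fibroblasts (4 genes, at most 1.14 CPM), endothelium (3 genes, at most 0.596 CPM) and leukocytes (4 genes, at most 2.22 CPM) were low in both groups. Of these, only the leukocyte marker CD14 had enough counts to be tested, at 0.691 to 1.41 CPM.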

How the data were processed

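Total RNA was sequenced from 3 LMB and 3 LMB+auxin libraries of DLD-1 cells. Per the study's methods, ribosomal RNA was removed, stranded libraries were read as paired ends, and replicates were independent biological ones. The authors aligned reads to GRCh38 with STAR and counted them per Ensembl gene with featureCounts. The submitters' processing notes name STAR 2.6.1c and featureCounts 1.5.2. The deposited values are raw counts per gene, without normalization. The counting of strand was not given in the sources used here, so overlapping and antisense genes share uncertain counts.

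Symbols, coordinates and exon lengths come from GENCODE 44 on GRCh38 (56948 of 58051 identifiers matched), a later release than that used for counting. Promoter sequences are from RefSeq (GRCh38.p14). Genes with CPM above 1 in at least 3 libraries were kept. They were tested with edgeR 4.0.16 in R 4.3.3 (TMM, glmQLFit with robust estimation, glmQLFTest, two-sided), with Benjamini-Hochberg adjustment over all tested genes. A call needed an adjusted p under 0.05 together with a 1.3-fold difference. The standard error was the log2 fold change over the square root of F. DESeq2 1.42.0 and limma-voom (limma 3.58.1) were alternatives. Log2 CPM values used a prior count of 2.

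Replicate numbers are shared by the groups in the labels. Deviations from the group means correlated across genes at 0.531, 0.691 and 0.273 in pairs 1, 2 and 3. All lay above 0.1, and the numbers were taken to pair the libraries. Pairs of unequal number had lower correlations, from -0.573 to 0.146. Deviations from a group mean cancel within the group, so high values at equal numbers in part force lower ones at unequal numbers. LMB 1 with LMB+auxin 3 (0.146) and LMB 3 with LMB+auxin 1 (0.142) were above 0.1 too, so that limit alone does not set equal numbers apart. All values by pair or with the block rest on this pairing. Values with the replicate block are given for several tested pathway genes, also where they change no call, and for HES1 as a description. No test of the difference between groups is given for HES1 or for the genes named for a profile like it. The pairing was inferred from the data, as the labels give no shared day or batch.

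The genes and lists were chosen with earlier results of these data known. The genes named were the 10 chosen ones, pathway genes called in either fit or, in the fit without the block, at an unadjusted p under 0.05, the extremes of each role, the 5 genes of closest profile, copies and overlapping genes, and the tested genes of the lists of HES1-repressed and related bHLH genes. NOTCH2NLB, NOTCH2NLC and NOTCH2NLR were not analysed here.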

Additional observations from a re-analysis of the deposited data

How the results depend on the processing

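All alternatives were planned. The log2 fold change of HES1 kept its direction in all 18 of them, from 0.68 to 1.11, and with the replicate block and 1 pair left out it ran from 0.87 to 0.92. The number of genes called over the whole table was 1. It moved to 202 with the replicate block, 30 by DESeq2 with the replicate block, 11 by DESeq2 without it, 39 with no filter on low counts and 0 under library size alone, where edgeR gave 736 genes at an unadjusted p under 0.05. When single libraries were omitted, 0 to 5 genes were called, 2 when LMB replicate 2 and 5 when LMB+auxin replicate 2 was left out. The other 4 omissions gave 0 calls by edgeR, with 378 to 694 genes at an unadjusted p under 0.05. With the block, leaving out pair 1, 2 or 3 gave 140, 160 and 137 calls. HES1 was chosen for this difference and is left out of the pathway count. The number of other pathway genes called was 0 and became 1 with the replicate block. It was 0 by DESeq2 with the block, and 0 to 1 with the block and a pair left out. Among the other pathway genes the block changed the call of HES2 and no other call.

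For the 23 other named genes, 23 of 411 alternative values had the opposite sign, in 7 genes. RBPJ was at 0.004 under DESeq2 size factors and under DESeq2, and at 0.003 under DESeq2 with the block. With the block and a pair left out, reversed values were 0.012 and 0.019 for RBPJ, 0.01 and 0.11 for HES4, 0.007 for JAG2, 0.016 for NOTCH1 and 0.008 for NOTCH2. With 1 library left out, the values ran from -0.04 to 0.032 for RBPJ, -0.1 to 0.065 for HES4, -0.029 to 0.14 for JAG1, -0.16 to 0.004 for JAG2, -0.24 to 0.029 for NOTCH1, -0.07 to 0.032 for NOTCH2 and -0.041 to 0.15 for POGLUT1. The cause was not tested. The median over all genes stayed between -0.014 and 0.004 under the other scalings. Counts of HES4, NRARP and NOTCH3 were 200 to 387 per library, which limits what could be detected.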
